A study of Rattus norvegicus with 12 samples.

Results

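Skeletal muscle contractile and metabolic genes were followed in sciatic nerve, dorsal root ganglia (DRG) and dorsal spinal cord of rats that had received a myelin peptide into the left sciatic nerve. The 40 genes were chosen for their known roles in muscle fibres and fell into 14 fast-fibre genes, 7 slow-fibre genes, 12 structural genes that both fibre types share and 7 genes of energy metabolism. Probes were assigned to them through RefSeq accessions, which gave 39 probes for 35 of the 40 genes, out of 15159 named genes on the array. Mybpc2, Tcap, Neb, Ttn and Ryr1 had no such probe and were not analysed here. A probe was well above background on at least 1 array for 31 genes, namely 12 fast-fibre, 7 slow-fibre, 5 shared and 7 metabolic genes. Myh2, Actn2, Myot and Xirp2 were not well above background on any of the 12 arrays.

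Each of 12 single-colour arrays held RNA pooled from 3 female rats aged 8 weeks, and every condition had 1 array. Sprague-Dawley rats, called wild-type here, were labelled as 12 days after injection, and athymic nude rats (Hsd:RH-Foxn1rnu, rnu-/-, which lack a thymus and mature T cells) as 7 days, so rat type, strain and day cannot be told apart. In both rat types the left nerve received 50 μg of the peptide MBP84-104 in 5 μL of PBS, and the labels name the right nerve as a PBS injection site. The 6 pairs of arrays were the injected against the contralateral nerve, the injected-side against the contralateral DRG, and the left dorsal cord at the lumbar enlargement against the same sector of the cord above it, in each rat type. The methods of the study differ from the labels in the number of rats per group, in the day for the wild-type rats and in naming heterozygous rnu+/- controls. Cord arrays thus compare segments, and every array, the contralateral and above-lumbar ones included, came from rats given the peptide. Slide 1 held the 6 nude arrays and both wild-type nerve arrays, and slide 2 the other 4 arrays, so each pair lay on 1 slide.

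A skeletal muscle fibre contracts when calcium released from the sarcoplasmic reticulum binds troponin on the thin filament, which lets myosin heads pull on actin. Fast and slow fibres build this apparatus from different genes for myosin heavy and light chains, troponins and calcium pumps, so that the isoforms present show which fibre type an RNA came from. Peripheral nerves run between muscles and ganglia lie close to paraspinal muscle, and some of these genes are also used by neurons, glia or smooth muscle cells. In RNA of whole tissue, fewer cells of a type and less RNA per cell cannot be told apart.

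Promoter windows of 5 of these genes are shown because 3 fast-fibre genes moved together in 3 of the pairs below and 2 slow-fibre genes moved in another. Windows of 35 of the 40 genes were taken from RefSeq (build GRCr8), without Tnnt3, Myl2, Tnnc1, Myot and Tcap. The sequences are the 250 bases before the start of Myl11 at chr1:191260039-191260288 (plus strand), Tnnc2 at chr3:173935340-173935589 (minus strand), Atp2a1 at chr1:190475411-190475660 (minus strand), Tnni1 at chr13:49781279-49781528 (plus strand) and Tnnt1 at chr1:78348785-78349034 (plus strand), each written 5′ to 3′ along its gene. Capitals mark E-boxes, CANNTG, the motif bound by myogenic factors such as MyoD, which reads the same pattern on both strands.
Myl11: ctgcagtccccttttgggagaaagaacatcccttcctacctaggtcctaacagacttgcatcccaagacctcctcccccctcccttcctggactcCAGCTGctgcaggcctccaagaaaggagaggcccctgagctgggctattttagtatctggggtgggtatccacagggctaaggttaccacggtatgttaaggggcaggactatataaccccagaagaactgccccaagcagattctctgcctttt
Tnnc2: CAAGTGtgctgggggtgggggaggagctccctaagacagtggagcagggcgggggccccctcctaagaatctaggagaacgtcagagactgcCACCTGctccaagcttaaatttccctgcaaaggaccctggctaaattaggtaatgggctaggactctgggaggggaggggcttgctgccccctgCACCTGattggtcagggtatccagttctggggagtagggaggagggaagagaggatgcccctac
Atp2a1: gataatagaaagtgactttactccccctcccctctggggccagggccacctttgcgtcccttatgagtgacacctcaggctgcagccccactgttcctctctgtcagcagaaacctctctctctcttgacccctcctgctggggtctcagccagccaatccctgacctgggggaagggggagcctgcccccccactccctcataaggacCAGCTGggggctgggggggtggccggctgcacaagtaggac
Tnni1: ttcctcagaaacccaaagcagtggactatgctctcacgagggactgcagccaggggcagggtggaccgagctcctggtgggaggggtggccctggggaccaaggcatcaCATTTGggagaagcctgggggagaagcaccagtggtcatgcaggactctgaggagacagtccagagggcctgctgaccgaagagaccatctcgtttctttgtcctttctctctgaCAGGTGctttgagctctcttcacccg
Tnnt1: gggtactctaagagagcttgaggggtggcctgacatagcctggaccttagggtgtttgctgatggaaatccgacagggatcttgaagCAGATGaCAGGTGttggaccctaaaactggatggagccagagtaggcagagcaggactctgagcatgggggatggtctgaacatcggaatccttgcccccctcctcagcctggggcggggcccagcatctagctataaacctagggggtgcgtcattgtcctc
An E-box stood in the windows of 31 of the 35 genes, or 88.6%, and in 65.5% of all 33469 promoter windows of the same length. Matches to the MEF2 site, searched on both strands, stood in 4 of the 35 windows (Xirp2, Ttn, Smpx and Cox6a2) and in 0.523% of all windows. Matches to the CArG box stood in 3 (Myh4, Myl3 and Acta1), beside 1.497% of all windows. These are matches of letters in a short window and not measured binding sites.

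DRG and cord arrays were set apart by the markers of their labels. Summed levels of 10 sensory neuron genes, each signal divided by the array median, were between 957 and 1181 on the 4 DRG arrays, and between 4.3 and 136 on the nerve and cord arrays. Summed levels of 10 spinal cord genes were between 695 and 947 on the cord arrays and between 10.4 and 17.8 on the others, while 9 Schwann cell genes, at between 7027 and 10318 on the nerve, 6243 and 7824 on the DRG and 3093 and 4770 on the cord arrays, did not separate nerve from DRG. The median signal of an array was between 23.5 and 122, and the injected nude nerve was the dimmest. Only 15 of the 35 muscle genes were well above background there, the fewest of the 12 arrays, against between 16 and 31 on the others. Levels below are log2 signals minus the median of the array. Where 1 array of a pair was not well above background, a value under the lowest detected signal of that array was raised to it. An undetected value above that floor was kept as measured, as for Myh7 and Cacna1s in the wild-type nerve and Ckm in the nude cord. Both kinds of ratio are called bounds and written as at least, but the second is a ratio to an undetected signal. A bound can only point to the array where the gene was detected, and where the value used reversed it no ratio is given. With 1 array per condition, a ratio has no replicate check and no p-value, and a 2-fold difference is used as a mark of size alone.

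**Figure D1:**
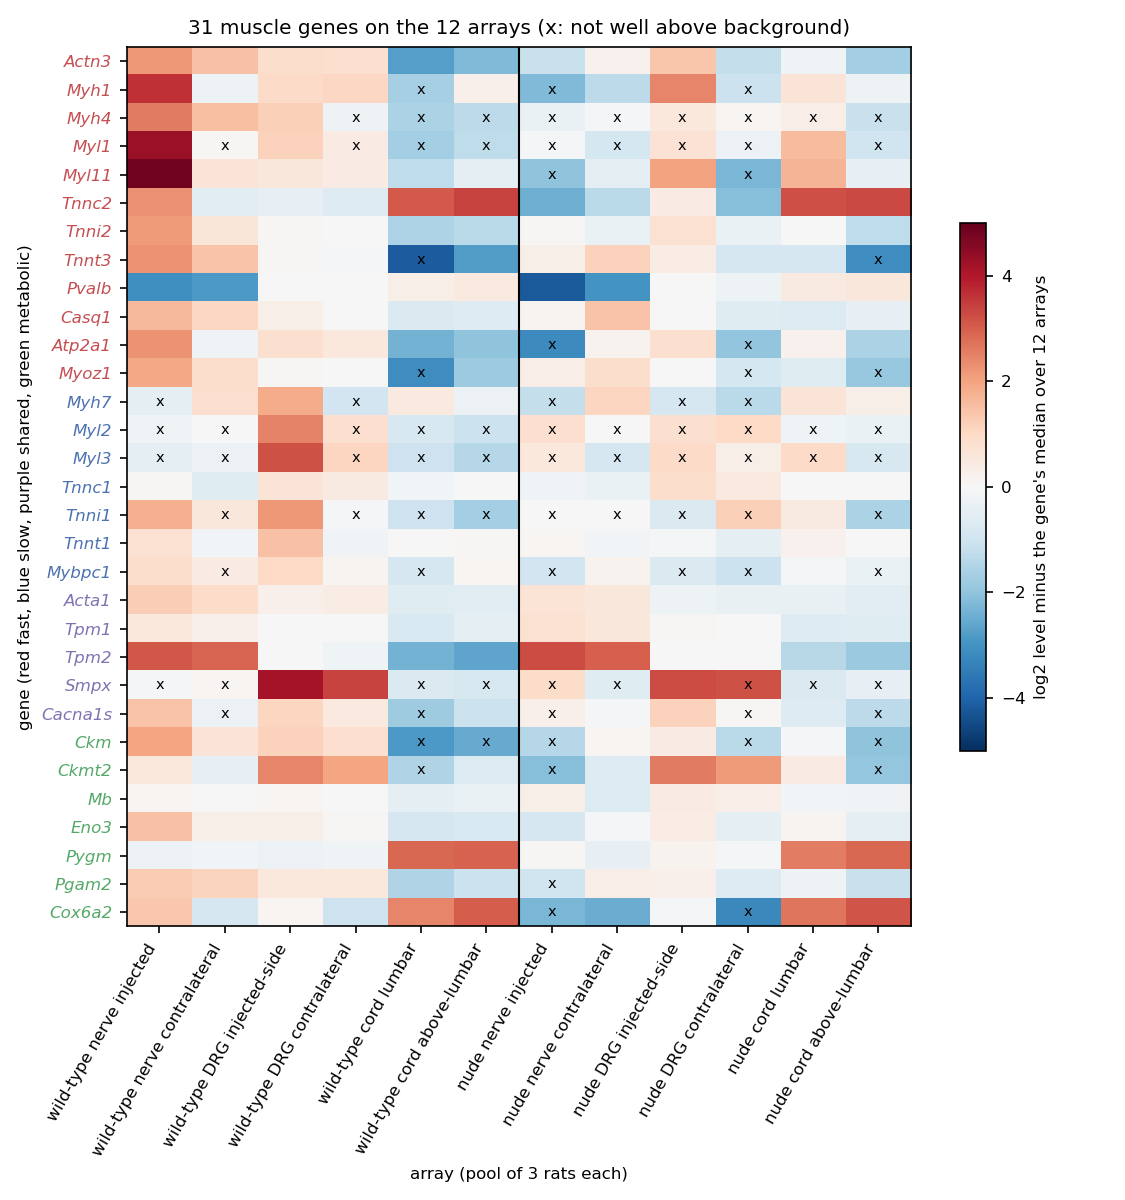
Level of each of 31 muscle genes (rows) on the 12 arrays (columns), as the log2 level minus the median of that gene over the 12 arrays, with crosses where the probe was not well above background. Of 12 fast-fibre genes, 10 were highest on the injected wild-type nerve, Myl2 and Myl3 were above background only on the injected-side wild-type DRG, and Tnnc2, Pygm and Cox6a2 were high on all 4 cord arrays.

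In the injected wild-type nerve, 13 of 28 measured muscle genes were at least 2-fold higher than in the contralateral nerve, beside 4.68% of the 10213 genes measured in that pair. Only Myh7 was at least 2-fold lower (4.08% of all genes). The median log2 ratio was 0.91, and that of all genes −0.05. Fast-fibre genes led, with 11 of 12 higher, 8 of them at least 2-fold, and a median of 1.29. The median was 0.67 over 5 slow-fibre, 0.30 over 4 shared and 0.90 over 7 metabolic genes. After normexp background correction, a setting that shrinks low signals, 7 genes were at least 2-fold higher and none lower, and the metabolic median was 0.25.

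Myl11, the fast regulatory myosin light chain, had a log2 level of 5.97 on the injected wild-type nerve and 1.82 on its contralateral pair, and of −0.87, not well above background, and 0.68 on the nude nerves. The injected wild-type nerve was thus 17.8-fold above its contralateral side, while the injected nude nerve was at least 2.46-fold below. Myh1, the heavy chain of fast type IIx fibres, stood at 3.04 and −0.88 in wild-type nerves, a 15.2-fold difference. In nude rats it was not well above background on the injected side, at −2.84, and stood at −1.92 on the other, and no bound could be given. The heavy chain genes are so alike in sequence that their probes may cross-hybridise, and which of Myh1, Myh4 or Myh8 a signal came from is uncertain. Myl1, the fast essential light chain, was detected on the injected wild-type nerve alone of the nerve arrays, at 1.72, at least 8.90-fold above the contralateral side.

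Tnnc2, the calcium-binding subunit of fast troponin, had levels of 5.05 and 2.22 on the injected and contralateral wild-type nerves and of 0.32 and 1.43 on the nude nerves. This was 7.13-fold higher on the wild-type and 2.15-fold lower on the nude injected side. The other fast troponin subunits moved less, with log2 ratios of 1.52 for Tnni2 and 0.81 for Tnnt3 in wild-type rats. Atp2a1, the calcium pump that refills the reticulum of fast fibres, was at 3.12 and 0.72 in wild-type and at −2.30, not well above background, and 1.04 in nude nerves. It was 5.31-fold higher in the first pair and at least 3.16-fold lower in the second. Casq1, which stores calcium in the reticulum, had ratios of 0.61 and −1.27, although its second probe gave −0.26 in the wild-type pair. Pvalb, a calcium buffer of fast fibres and of many neurons, had a ratio of −0.18 and was the only fast-fibre gene measured that was not higher on the injected wild-type side.

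Among the metabolic genes, Ckm, the cytosolic creatine kinase of muscle, had levels of 2.38 and 1.05 on the wild-type nerves and of −1.001, not well above background, and 0.52 on the nude nerves. The wild-type ratio was 1.33, and the nude ratio, a bound, was −1.14. Cox6a2, a heart and muscle subunit of cytochrome c oxidase, was 4.57-fold and Eno3, the muscle enolase, 2.22-fold higher in the injected wild-type nerve. Mb, the oxygen store myoglobin, and Pygm, the muscle glycogen phosphorylase, had ratios of 0.10 and −0.14. Of the slow-fibre genes, the slow heavy chain Myh7 was not well above background on the injected wild-type nerve and at least 2.52-fold lower there than on the contralateral side, at −0.20. The slow troponin subunits Tnni1 and Tnnt1 had ratios of at least 1.02 and 0.92. The shared thin-filament genes Acta1, Tpm1 and Tpm2, which other cell types also use in part, lay between 0.21 and 0.33, and the calcium channel subunit Cacna1s was at least 3.33-fold higher.

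In nude nerves, 8 of 20 measured muscle genes were at least 2-fold lower on the injected side, where 13.5% of 9456 genes were, and none was at least 2-fold higher (7.52%). This pair was shifted as a whole, with a median log2 ratio of −0.38 over all genes. Fast-fibre genes had 6 of 9 at least 2-fold lower and a median of −1.19, or −0.80 relative to all genes. Relative to all genes, 1 muscle gene, Atp2a1, was at least 2-fold lower and 1, Mb, at least 2-fold higher, and with the 75th percentile 3 were lower and 1 higher. The Mb ratio, 0.97 before this step, changed sign under at least 1 setting tried. Slow-fibre, shared and metabolic genes had medians of 0.15 over 3, 0.20 over 3 and −0.81 over 5 genes, none with a settled direction. With normexp correction the slow-fibre and shared medians were −0.41 and −0.87, and with detection required on both arrays the metabolic median was 0.46. The direction of the fast-fibre genes in this pair, lower on the injected side, was kept in the medians under all scalings tried. The dim injected array moved with this result, and its part in it was not tested.

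Markers of other cells differed between the same nerve arrays. All 7 measured adipocyte genes were lower on the injected wild-type side, 6 of them at least 2-fold, and all 9 Schwann cell genes were lower, 3 of them at least 2-fold. In the nude nerve all 6 measured adipocyte genes were lower, 5 of them at least 2-fold. Of 9 Schwann cell genes 7 were lower there, 5 of them at least 2-fold, beside 13.5% of all genes. The adipocyte genes had summed levels of 470 on the injected wild-type nerve and 1028 on its pair, and of 381 and 918 on the nude nerves. All 4 red blood cell genes measured in wild-type and all 3 measured in nude nerves were at least 2-fold higher on the injected side, summing to 3756 against 980 and to 5677 against 721. Smooth muscle and pericyte genes summed to 115 and 117 in wild-type and 120 and 126 in nude nerves. The part of these cells in the muscle gene values was not tested.

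**Figure D2:**
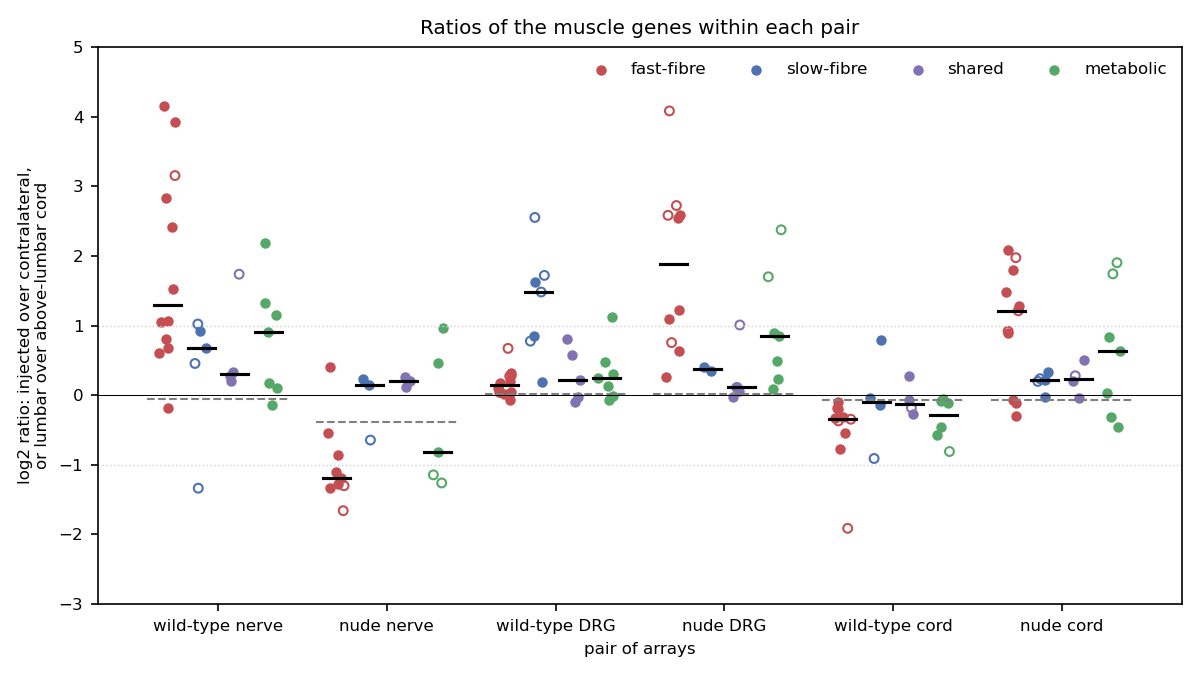
Log2 ratio of each measured muscle gene within the 6 pairs of arrays, coloured by class, with open points for bounds, black lines for class medians, dashed grey lines for the median of all genes and dotted lines at 2-fold. Fast-fibre genes had medians of 1.29 in the wild-type nerve, 1.88 in the nude DRG and 1.21 in the nude cord, and slow-fibre genes of 1.48 in the wild-type DRG.

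The DRG showed a different class in each rat type. In wild-type rats each of the 7 slow-fibre genes had the higher value on the injected side and their median was 1.48, while the 12 measured fast-fibre genes had a median of 0.14 and none reached 2-fold. Of these 7, 4 were bounds from genes detected on the injected side alone, so they could only be higher. In total 5 of 31 muscle genes were at least 2-fold higher, beside 0.489% of 10831 genes, and none was 2-fold lower (0.517%). The count higher was 2 with normexp correction and also 2 with detection required on both arrays. In nude rats all 10 measured fast-fibre genes were higher on that side, 7 of them at least 2-fold, and their median was 1.88. Of these 10, 4 were bounds of the same kind. There, 10 of 24 muscle genes were at least 2-fold higher and none lower, where 0.682% and 0.388% of 9537 genes were. Only 2 slow-fibre genes were measured in the nude DRG, with ratios of 0.40 for Tnnc1 and 0.35 for Tnnt1. The difference between the rat types was not tested, with 1 array per condition.

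Tnnt1, which ties slow troponin to tropomyosin, had levels of 3.31 and 1.69 on the injected-side and contralateral wild-type DRG and of 1.77 and 1.42 on the nude DRG, so that 1 array of the 4 stood above the others. It was 3.07-fold higher in the wild-type pair, and a second probe of the gene gave a log2 ratio of 2.10. Tnni1, the inhibitory subunit, was detected on 1 of the 4 DRG arrays, the injected-side wild-type DRG, at −0.01, and was at least 3.29-fold above the contralateral side. Myh7 stood at 0.82 on that array and was not well above background on the other 3 DRG arrays, a difference of at least 5.87-fold in wild-type rats. The slow and cardiac light chains Myl3 and Myl2 were detected on this array and on no other of the 12, at −0.25 and −0.95, at least 2.79-fold and 1.71-fold above the contralateral DRG. The slow binding protein Mybpc1 had a ratio of 0.84. This array also had more spots well above background (76.9%) than any other, and a median signal of 88.3 against 57.3 on its pair. With detection on both arrays required, the slow-fibre median was 0.84 over 3 genes, and after normexp background correction it was 0.45. In the same pair 1 of 5 measured adipocyte genes, Retn, was at least 2-fold higher, and its part in the result was not tested.

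In the nude DRG, Myl11 had levels of 3.19 on the injected side and −1.13, not well above background, on the contralateral side, at least 16.9-fold apart. The wild-type DRG lay between these, at 1.74 and 1.56. Tnnc2 was at 3.18 and 0.64, a 5.81-fold difference, and Actn3, the fast-fibre actin crosslinker of the Z-disc, was at 3.02 and 0.43, a 6.03-fold difference. Atp2a1 was at least 5.99-fold, Myh1 at least 6.60-fold and Cox6a2 at least 5.19-fold higher. Ckm was at least 3.25-fold higher, at 0.81 against an undetected −0.96. The contralateral nude DRG was thus the lowest of the 4 DRG arrays for these 7 genes. With detection required on both arrays, 4 muscle genes remained at least 2-fold higher and the fast-fibre median was 1.16, and it was 0.88 after normexp correction. Of 5 measured adipocyte genes in this pair, Retn was at least 2-fold higher with a ratio of 2.02 and Adipoq with 1.09, both bounds, while all 10 sensory neuron and all 9 Schwann cell genes stayed within 2-fold. Of 4 red blood cell genes 1 was at least 2-fold higher. The part of other cells in these values was not tested.

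Ckmt2, the mitochondrial creatine kinase of striated muscle, and Smpx, a small muscle protein of the costamere, were brightest in the DRG of both rat types. Ckmt2 had levels of 1.85, 1.37, 2.02 and 1.53 on the wild-type injected-side, wild-type contralateral, nude injected-side and nude contralateral DRG, and none above −0.09 elsewhere. Smpx stood at 0.54, −0.27 and −0.36 on the first 3 of these and at −0.48, not well above background, on the fourth, and it was detected on no nerve or cord array. The DRG were at least 2.52-fold above the nerve and at least 4.37-fold above the cord for Smpx, 3 of the 4 DRG arrays having measured it.

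**Figure D3:**
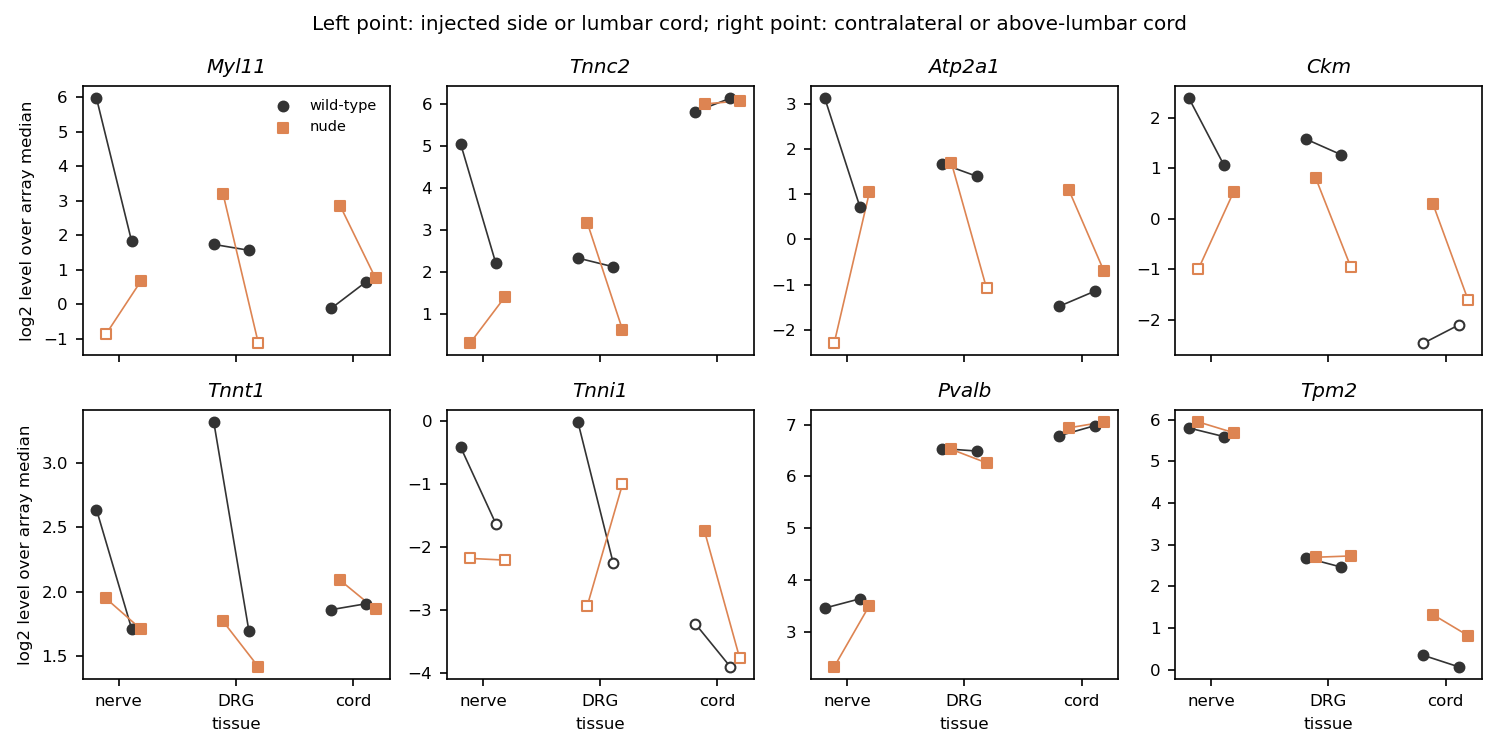
Log2 level over the array median of 8 muscle genes in nerve, DRG and cord, with wild-type arrays as black circles, nude arrays as orange squares, open symbols where the probe was not well above background, and a line joining the arrays of a pair. The left point of each pair is the injected side or lumbar cord. Myl11 stood at 5.97 and 1.82 on the wild-type nerves, and Tnnt1 stood apart on the injected-side wild-type DRG.

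In the cord, 8 of 27 measured muscle genes were at least 2-fold higher in the lumbar than in the above-lumbar segment of nude rats and none was lower, beside 0.776% and 0.589% of 10689 genes. In wild-type rats none of 24 was 2-fold higher and 1, Myh1, was at least 3.76-fold lower, beside 0.913% and 0.831% of 11065 genes. Fast-fibre genes had a median of 1.21 over 11 genes in nude and −0.34 over 10 genes in wild-type rats, where none of them was higher in the lumbar segment. Myl11 had levels of 2.84 and 0.75 on the nude lumbar and above-lumbar cord and of −0.12 and 0.65 on the wild-type cord. It was 4.25-fold higher in the nude lumbar segment, where it was the highest of the 4 cord arrays. Atp2a1 stood at 1.10 and −0.70 in nude and −1.48 and −1.15 in wild-type cord. Tnnt3 was at least 3.93-fold and Ckm at least 3.74-fold higher in the nude lumbar cord. Slow-fibre genes had medians of 0.22 over 5 and −0.10 over 4 genes. With detection on both arrays required, 4 genes stayed at least 2-fold higher in the nude cord, and after normexp correction 2. In the same pairs 6 of 9 Schwann cell genes were at least 2-fold higher in the lumbar segment of each rat type, and red blood cell genes were higher there in all 4 genes of nude and 1 of 4 of wild-type rats, but their part in the muscle gene values was not tested.

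A difference between sides that both rat types share was tested with limma over the 12 arrays, with rat type as a block within each tissue. Of 25 muscle genes tested 1 was called in the nerve, beside 15.1% of 11095 genes, none in the DRG (0.018%) and none in the cord (0.252%). At an unadjusted p under 0.05 the counts were 3, 3 and 0. The fit had 3 residual degrees of freedom, and signals below detection entered it as measured, without being raised. Its spread is the disagreement of the 2 rat types within each tissue, which holds rat type, strain and day, and not replicate noise alone. Genes that moved in opposite directions could thus hardly be called, such as Myl11 in the nerve, at 1.30 ± 1.37 (SE). Few calls therefore do not show that the sides were alike. The gene called was Myh7, lower in the injected nerves by a log2 difference of −1.80 ± 0.48 (SE, limma adjusted p = 0.0445), with both injected nerves below detection. It was not called under any of the 5 other scalings or background settings tried, nor without any 1 of the 4 nerve arrays. Without either wild-type nerve array, which leaves the nude pair to set the difference, 3 other genes (Casq1, Mb and Pvalb) were called.

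The pairs share no array, so ratios of the same gene can be set side by side. Of 23 muscle genes measured in both the wild-type nerve and the nude DRG, 20 had the same sign. At least 2-fold higher in both were 8, out of 13 in the nerve and 10 in the DRG, namely Myh1, Myl11, Tnnc2, Tnni2, Atp2a1, Cacna1s, Ckm and Cox6a2. Of these 8, Tnnc2 and Tnni2 alone were detected on both nude DRG arrays. In the nude DRG 8 of 24 muscle gene ratios were bounds that could only be higher, which in part sets these counts. The share of all genes with the same sign is not given. Over all 9126 genes measured in both pairs, 21, or 0.23%, were at least 2-fold higher in both. The nude DRG, with 10 genes at least 2-fold higher, and the nude cord, with 8, had 6 in common, beside 13 of all 9252 genes, or 0.141%. The wild-type nerve, with 13, and the wild-type DRG, with 5, had 2 in common, beside 6 of all 9879 genes, or 0.0607%. The wild-type nerve and the nude cord had 5 in common (0.24% of all genes). Within the same tissue, the 2 rat types shared none in the nerve, 1 in the DRG and none in the cord. The shares of all genes there were 2.01%, 0.137% and 0.227%. Between the nerves of the 2 rat types 9 of 20 muscle genes had the same sign. Of 22 measured in both the wild-type cord and the nude DRG, none did.

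A wider list of 69 other skeletal muscle genes, 60 of which had a probe, moved less. In the wild-type nerve pair 24 of 37 measured were higher on the injected side, 12 at least 2-fold, 1 was at least 2-fold lower and the median was 0.39. Of these 37, 14 were bounds from genes detected on the injected side alone, which could only be higher. Over the 23 genes detected on both arrays the median was −0.05. Cav3, the muscle caveolin, had a ratio of at least 2.33, the muscle deaminase Ampd1 of at least 2.27, the pump regulator Sln of at least 1.88 and the oxidase subunit Cox8b of 1.66. The 1 gene at least 2-fold lower was Myom2, with a ratio of −1.56, and of −2.22 in the nude nerve. It was detected on both arrays of each of these pairs. In the other 5 pairs the median of the list lay between −0.10 and 0.16. In the nude nerve it was 0.16, beside −0.38 over all genes and −1.19 over the fast-fibre genes. There 11 of 20 measured were higher, 4 of them at least 2-fold (7.52% of all genes), and 2 were at least 2-fold lower (13.5%). Csrp3, a stretch-related Z-disc protein, was at least 2-fold higher on the injected-side DRG of both rat types, with ratios of at least 2.76 in wild-type rats and 2.01 in nude rats, and at least 1.05 in the wild-type nerve.

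Genes of regenerating muscle were mixed in the injected wild-type nerve. The embryonic heavy chain Myh3 had a ratio of at least 2.91 and the neonatal heavy chain Myh8 of 2.55, with Myh8 at 4.88 and 2.33 on the wild-type and 0.49 and 1.49 on the nude nerves. The myogenic factors Myog and Myf5 had ratios of 0.12 and 0.05, and Pax7, which marks satellite cells, Myod1 and Myf6 were not well above background on any array. Over all 12 arrays Myh8 was also the gene outside the 40 whose pattern was most like the median of the 12 detected fast-fibre genes, with a Pearson's r of 0.88. The next were Hoxc5 (0.82), Tor1b (0.81), Ly6c (0.81) and Ifit3 (0.80), none of them from the muscle lists. Within the 40 genes, Ckm (0.965), Actn3 (0.96), Pgam2 (0.95) and Eno3 (0.93) were closest to the fast-fibre median, leaving out the gene itself, and Pygm (−0.66) and Pvalb (−0.41) ran against it. These correlations are descriptions over 12 arrays of 3 tissues.

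Differences between tissues could be tested over the 12 arrays, 4 per tissue, with limma and rat type as a covariate. The 4 arrays of a tissue are not replicates of 1 condition, and the side or segment stays in their spread. Signals not well above background entered this fit as measured, without being raised. The test covered 25 muscle genes among 11095. Between nerve and DRG, 4 were higher and 3 lower in the nerve at an adjusted p under 0.05, beside 33.8% and 14.4% of all genes. Between nerve and cord 11 were higher and 4 lower in the nerve (35.3% and 30.9%), and between DRG and cord 11 were higher and 3 lower in the DRG (24.8% and 36.2%).

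Tpm2, a tropomyosin that smooth muscle and other contractile cells also make, had mean log2 levels of 5.76 ± 0.15 in nerve, 2.65 ± 0.12 in DRG and 0.64 ± 0.55 in cord (SD, n = 4 each). The nerve was 8.64-fold above the DRG and 34.6-fold above the cord, with limma adjusted p-values of 1.67e-07 and 1.01e-09. Pvalb was lower in nerve, at 3.23 ± 0.61, than in DRG at 6.45 ± 0.13 and cord at 6.94 ± 0.11 (SD, n = 4 each), with log2 differences of −3.23 and −3.72 (limma adjusted p = 6.57e-07 and 5.60e-08). It is a known marker of proprioceptive neurons and of spinal interneurons. Tnnc2 reached 6.00 ± 0.14 in cord but 2.25 ± 2.02 in nerve and 2.07 ± 1.06 in DRG (SD, n = 4 each), 13.5-fold and 15.3-fold lower (limma adjusted p = 8.04e-04 and 7.80e-04). Its 4 cord arrays lay between 5.81 and 6.13, above every nerve and DRG array. Cox6a2 was 14.8-fold and Pygm, a phosphorylase that astrocytes also use, 8.07-fold higher in cord than in nerve. Ckmt2 was 7.75-fold higher in DRG than in nerve and 9.39-fold higher than in cord (limma adjusted p = 9.47e-04 and 3.69e-04). It was well above background on 3 of 4 nerve and 2 of 4 cord arrays, so these sizes rest in part on undetected signals.

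Tnnt3, Myoz1, Actn3, Tnni2, Casq1, Ckm, Pgam2, Cacna1s, Acta1, Tpm1 and Tpm2 were the 11 genes called higher in nerve than in cord, Tnnt3 by 16.01-fold. On the 4 cord arrays, Tnnt3, Myoz1 and Cacna1s were well above background on 2 and Ckm on 1, so their sizes rest in part on undetected signals. Of the 4 slow-fibre genes tested, Tnnc1, the slow and cardiac troponin C, was the only one called, 1.84-fold higher in DRG than in nerve and 1.57-fold higher than in cord. For nerve over cord, Actn3 was not called without the wild-type lumbar cord, nor Ckm without either wild-type cord array or the injected wild-type nerve. Within slide 1, which held all nude and the wild-type nerve arrays, 5 of the 11 nerve over cord calls held in the 6 nude arrays alone, and 6 held with slide as a term. Of the 11 genes called higher in DRG than in cord, 3 held in the nude arrays alone. All 11 were called with the slide term, which could not check them. DRG and cord arrays of each rat type shared a slide, so their log2 differences stayed the same. The count of 11 was 7 without either wild-type DRG array and without either wild-type cord array, each in turn, where Acta1, Actn3, Ckm and Pgam2 were not called. Ckm and Pgam2 were also lost without the injected-side nude DRG or the nude above-lumbar cord, and Actn3 without the former. All 4 genes lower in nerve than in cord and all 3 lower in DRG than in cord held in the nude arrays alone, and in the wild-type arrays alone 3 of the 4 and all 3 did, Tnnc2 being lost between nerve and cord (limma adjusted p = 0.0526). Both Tnnc1 calls were lost in either rat type alone, with limma adjusted p-values of 0.0516 and 0.0547 for nerve against DRG.

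**Figure D4:**
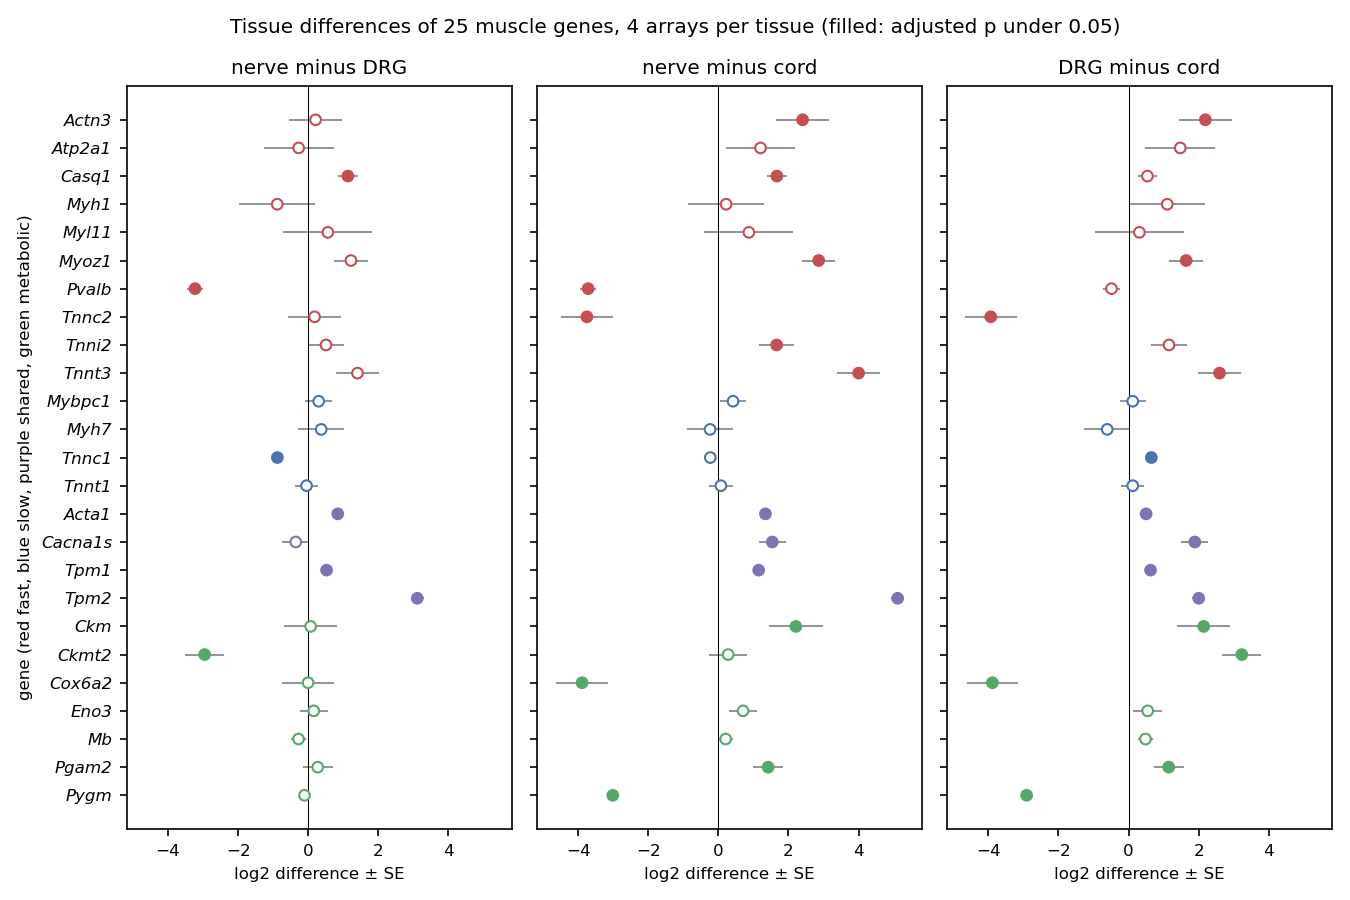
Log2 difference between tissues (points) with its standard error (bars) for 25 muscle genes in the limma fit over 12 arrays, filled where the adjusted p was under 0.05 and coloured by class. Tpm2 was 3.11 and 5.11 higher in nerve than in DRG and cord, and Tnnc2, Cox6a2 and Pygm were lower in both tissues than in cord.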

How the data were processed

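Cy3-labelled RNA was hybridised to single-colour Agilent 60-mer rat arrays. The intensity values deposited by the authors are spot signals after background subtraction by Feature Extraction, for which the file headers name version 10.7.3.1 and the submitters' processing notes 10.5. The log2 values deposited by the authors are their normalized values, used here as an alternative. The other values, per the file headers, are flags of 0 or 1 that mark detection above background, saturated spots (0 here) and outliers.

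Outlier spots were left out, except in 9 values with no other spot, log2 signals averaged per probe, and the median of each array subtracted. Probes were named by RefSeq accession (GRCr8 table), and a gene took its brightest probe. A probe counted as well above background where more than 50% of its spots were. The number of arrays limits the precision. Within 1 pair no test was possible. Sides were tested over both rat types with limma and rat type as a block within each tissue, which was added after seeing the data. Tissues were compared with limma 3.58.1 in R 4.3.3 (lmFit and eBayes, Benjamini-Hochberg over genes well above background on at least 4 of 12 arrays). On simulated data with 11095 genes for nerve minus DRG, it recovered 61% of 100 genes changed 2-fold and 95% of 100 changed 4-fold, with 8 unchanged genes called. Promoter sequences came from the RefSeq table. Other steps used Python 3.11.15 with pandas 2.3.3 and numpy 2.4.6.

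All 40 members could be named, other lists by counts with up to 5 genes of the largest absolute wild-type nerve ratio, and the 15 genes most like the fast-fibre median. Csrp3, Myom2, Pax7, Myod1 and Myf6 were named after their values were seen. A gene that the rule would name is not reported here. The members and lists were chosen with earlier results of these data known. Other settings tried were scaling by quantiles, by the 75th percentile, by cyclic loess or as the authors did, normexp with an offset of 50 on the median spot signal, detection required on both arrays or not at all, outliers kept, a mean of a gene's probes, a 3-fold threshold, other terms or arrays in the tissue fit, and, chosen after seeing the data, ratios relative to the median of all genes in the pair.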

Additional observations from a re-analysis of the deposited data

Results flagged for a closer look

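Of the muscle genes, 4 were at least 2-fold higher on the injected side in the wild-type nerve and at least 2-fold lower there in the nude nerve, and the difference between the rat types was not tested. The wild-type and nude log2 ratios were 4.15 and −1.30 for Myl11 and 2.83 and −1.11 for Tnnc2. They were 2.41 and −1.66 for Atp2a1, and 1.33 and −1.14 for Ckm. The nude values of Myl11, Atp2a1 and Ckm are bounds, and relative to the median of all genes in the nude pair the ratios of Myl11, Tnnc2, Atp2a1 and Ckm were −0.92, −0.72, −1.28 and −0.76.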

How the results depend on the processing

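No paired analysis was possible because each group holds 1 array, so that groups share 1 replicate number. A block by rat type could be fitted and is given in the report. A value counts as stable when it moved by less than 1.5-fold. Of 1499 recomputed gene ratios within pairs 61 moved further, and of 240 class medians 10 did. The sign changed in 43 of the ratios and 7 of the medians, all below 2-fold in size at first. The largest such ratio was that of Mb in the nude nerve, 0.97, and the largest median the metabolic one of −0.81 there. Of 1800 recomputed differences between tissues none with a call changed sign, 64 lost and 46 gained a call. After normexp correction, the count of muscle genes at least 2-fold higher fell to 7 in the wild-type nerve, 2 in the wild-type DRG, 4 in the nude DRG and 2 in the nude cord, and the count lower was 0 in the wild-type nerve, 0 in the wild-type cord and 3 in the nude nerve. Class medians with normexp were 0.25 for metabolic genes in the wild-type nerve, 0.45 for slow-fibre genes in the wild-type DRG, −0.87 for shared genes in the nude nerve, and 0.88 and 0.37 for fast-fibre genes in the nude DRG and nude cord. Requiring detection on both arrays left 2 genes higher in the wild-type DRG, 4 in the nude DRG and 4 in the nude cord, with 0 lower in the wild-type nerve, 0 in the wild-type cord and 4 in the nude nerve. The medians were then 0.84 for slow-fibre genes in the wild-type DRG, 0.46 and 0.038 for metabolic genes in the nude nerve and nude cord, and 1.16 for fast-fibre genes in the nude DRG. With no filter, the counts lower were 2 in the wild-type nerve, 1 in the wild-type DRG, 3 in the wild-type cord and 1 in the nude DRG, 6 genes were higher in the nude nerve, and the fast-fibre median in the nude DRG was 1.10. At 3-fold, 7, 3 and 5 genes were higher in the wild-type nerve, wild-type DRG and nude cord, and 0 and 1 lower in the wild-type and nude nerve. In the nude nerve, 1 gene was at least 2-fold higher by the 75th percentile, quantile normalization, cyclic loess, the authors' values and relative to all genes (chosen after seeing the data), and 3, 5, 5 and 1 were lower by the 75th percentile, quantile normalization, the authors' values and relative to all genes. The cause of these moves was not tested.

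Between tissues, leaving out 1 array at a time gave 4 to 6 genes higher and 3 lower for nerve minus DRG, 9 to 13 higher and 4 lower for nerve minus cord, and 7 to 13 higher and 3 to 4 lower for DRG minus cord. For nerve minus DRG, 2 genes were higher with normexp and 2 in the nude arrays alone, and 5 were lower with no filter. For nerve minus cord, 6 were higher with slide as a term and 5 in the nude arrays alone, and for DRG minus cord 3 were higher in the nude arrays alone. For sides over both rat types, 0 genes were called in the nerve with normexp, cyclic loess, quantile normalization, the 75th percentile or the authors' values, and 0 to 3 without 1 array. Low signal over background on the injected nude nerve, where 59.5% of spots were well above background, limits how many genes could be measured in the nude nerve pair.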
